A study of Mus musculus with 6 samples.

Results

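Eosinophils, basophils and mast cells are granule-bearing leukocytes, and 10 genes that mark them were described in articular cartilage of young and aged mice. The genes were chosen by name among the 33971 genes of the expression table. They are Prg2, Prg3, Epx and Siglecf for eosinophils, Mcpt8 for basophils, Cpa3, Mcpt4, Tpsb2 and Cma1 for mast cells, and the receptor gene Kit. RNA sequencing covered 3 cartilage libraries of the age of 2 months and 3 of the age of 18 months, to follow expression changes with age. All mice of both groups were labelled wildtype (WT) and no treatment was named. Each library had its own sample label, and nothing stated whether a library came from 1 mouse or from pooled mice, so the spread between libraries may be partly technical.

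Eosinophils and basophils are made in bone marrow and leave it through the blood. Mast cells leave as progenitors and mature in tissues such as skin, gut wall and synovium, and healthy articular cartilage, which has no vessels, is not known to hold any of these cells. Eosinophil granules are filled with major basic protein (Prg2), its homologue (Prg3) and eosinophil peroxidase (Epx), and the surface lectin Siglecf is a marker of mouse eosinophils. Basophil granules carry the protease Mcpt8. Mast cell granules carry carboxypeptidase A3 (Cpa3), which basophils and their progenitors also make, while the chymases Mcpt4 and Cma1 and the tryptase Tpsb2 mark mature mast cells of connective tissue. Kit, the receptor for stem cell factor, is kept by mast cells but is also carried by blood stem and progenitor cells and melanocytes.

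The libraries held 48171507 to 59085179 counts, and replicates of one age differed by more than counting noise. The labelled tissue was checked with 16 chondrocyte genes, which took 7.54% to 8.87% of counts at 2 months and 0.195% to 0.846% at 18 months, and all 16 fell. The most abundant of them, the lubricin gene Prg4, had a log2 fold change of −3.10 ± 0.90 (SE). A list of 14 neutrophil genes, led by S100a9, took 4.29% to 4.60% of counts in the aged libraries. It took 0.00175% and 0.0269% in 2-month replicates 1 and 3, but 0.563% in 2-month replicate 2. That library also held 0.694% of counts in 11 erythroid genes led by Hbb-bs, against 0.0333% and 0.0813% in the other young libraries and 2.77% to 3.65% at 18 months. Xist, transcribed from the inactive X chromosome, had 88239 to 102417 counts at 2 months and 11 to 30 at 18 months. The study's methods name male mice, but by Xist the sex of the 2 age groups may differ. Age and such a sex difference cannot be told apart in any comparison of these libraries.

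The 10 genes together took 0.166% to 0.189% of all counts in the aged libraries. In the young libraries they took 0.000132%, 0.0124% and 0.000627% in replicates 1, 2 and 3. The eosinophil genes, Mcpt8, Cpa3 and Kit were highest in the 3 aged libraries, while the connective tissue chymases and tryptase were near 0 at both ages. Genes were tested with edgeR's quasi-likelihood test on the deposited counts, and a call needed an adjusted p below 0.05 (Benjamini-Hochberg, over 20397 tested genes) and a log2 fold change, 18-month over 2-month, above 1 or below −1. Of the 10 genes, 8 passed the filter on low counts, and 3 of them were called higher: Epx, Cpa3 and Kit. Among all tested genes 14.9% were called higher and 21.3% lower. By the same edgeR test 0 of the 10 were called lower, 0 were lower at an unadjusted p below 0.05, and DESeq2 and limma also gave 0. The median log2 fold change was 4.93 over the 8 genes, 4.86 over the 14 neutrophil genes and −0.02 over all tested genes. In 7 of the 10 genes every aged library lay above every young library, as was so for 33.9% of all tested genes.

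**Figure D1:**
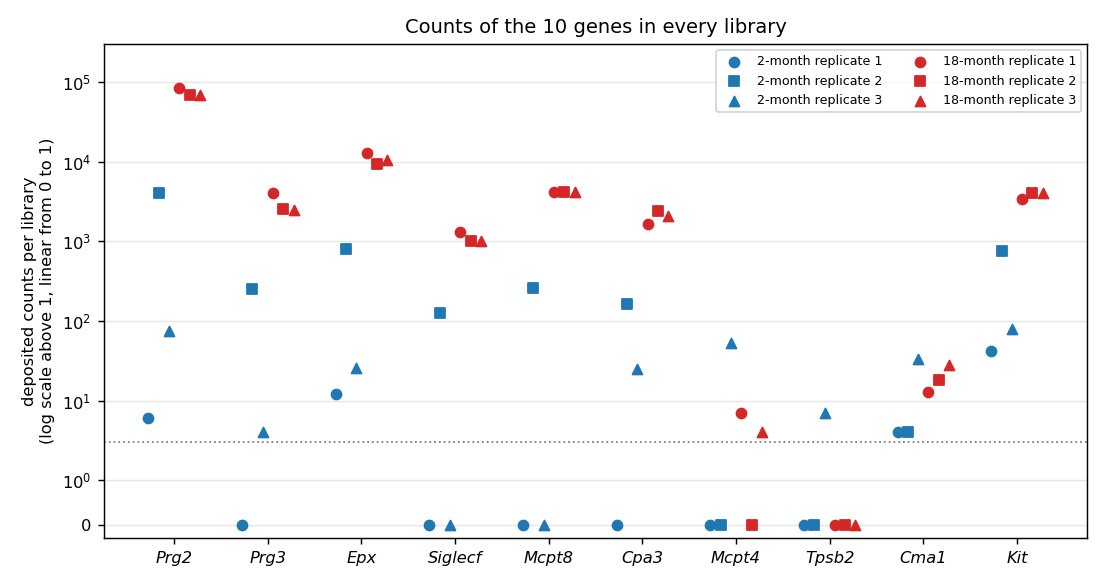
Deposited counts of the 10 genes (vertical axis, log scale above 1 count) in each of the 6 libraries, with 2-month libraries in blue, 18-month libraries in red and the dotted line at 3 counts. For Prg2 the aged libraries sit between 67778 and 84220 counts, above 4065, 74 and 6 in the young ones, whereas Mcpt4, Tpsb2 and Cma1 stay at or below 53 counts in every library.

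The plot of counts by gene shows which library set the spread. For 7 genes 2-month replicate 2 stood far above the other young libraries and below all aged ones. Without it, all 7 were called higher, which are Prg2, Prg3, Epx, Siglecf, Mcpt8, Cpa3 and Kit, while over all genes of that fit the share called higher was 23.3% (5007 of 21489). That library was singled out for its high counts of these same genes, so more calls without it follow from the choice. For Siglecf and Mcpt8 both remaining young libraries were at 0. The count of called genes also depended on the other libraries: it was 1 without 2-month replicate 1 and 0 without 2-month replicate 3 or any one of the 18-month replicates 1, 2 and 3. Those 5 fits called between 9.81% and 12.5% of all their genes higher. In bulk tissue, more cells of a type and more RNA per cell cannot be told apart.

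Prg2 (ENSMUSG00000027073, chr2:84980461-84983632, GRCm38, plus strand) encodes the major basic protein that forms the crystal core of the eosinophil granule. It had 6, 4065 and 74 counts in 2-month replicates 1, 2 and 3, and 84220, 67778 and 69277 at 18 months. The groups did not overlap, and the aged libraries lay close together while the young ones spanned from 6 to 4065 counts. In FPKM, which scales fragments by transcript length and library total, the level was 28.2 ± 47.4 (SD, n = 3) in young and 1359 ± 118 in aged cartilage. Prg2 ranked 26, 28 and 28 among all genes by FPKM in the aged libraries and 354 in 2-month replicate 2. It took 0.123% to 0.143% of all counts of an aged library. Its log2 fold change was 5.60 ± 2.17 (SE), with an edgeR adjusted p of 0.0748, so it was not called. DESeq2 gave an adjusted p of 0.00402, and edgeR gave 0.000711 without 2-month replicate 2, the young library with the most Prg2 counts.

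Prg3 (ENSMUSG00000027072, chr2:84988215-84993886, plus strand), the next gene along the chromosome, encodes a homologue of major basic protein. It had 0, 251 and 4 counts in young and 4054, 2538 and 2506 in aged replicates 1, 2 and 3. Again the groups did not overlap, and aged replicate 1 was the highest. The levels were 1.52 ± 2.58 FPKM (SD, n = 3) and 49.2 ± 12.5 FPKM. It had a log2 fold change of 5.00 ± 1.81 (SE) with an edgeR adjusted p of 0.0617, against 0.0245 by DESeq2. The coding sequences of Prg2 and Prg3 were 67.6% identical over 654 aligned bases. Per unit length, Prg2 was 23.5 to 31.3 times as abundant as Prg3 in the aged libraries and 18.4 times in 2-month replicate 2.

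Epx (ENSMUSG00000052234, chr11:87864000-87875536, minus strand) encodes the haem peroxidase of the eosinophil granule, and it rose. It had 12, 799 and 26 counts at 2 months and 12934, 9469 and 10355 at 18 months. No aged library came near the young ones, the closest young library being replicate 2. The levels were 1.74 ± 2.81 and 61.6 ± 7.88 FPKM (SD, n = 3). The log2 fold change was 5.14 ± 1.62 (SE), with an edgeR adjusted p of 0.0417. The call was lost without any 1 of the libraries other than 2-month replicate 2, with adjusted p between 0.0536 and 0.0891, and without the count filter (0.0580). Epx lies beside the genes of the other haem peroxidases of leukocytes and secretions, Mpo and Lpo, and its coding sequence was 72.3% and 64.3% identical to theirs. Mpo, the neutrophil peroxidase, had 13, 10550 and 52 counts in young and 104580, 94051 and 94917 in aged libraries.

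Siglecf (ENSMUSG00000039013, chr7:43351341-43359531, plus strand), an inhibitory lectin of the eosinophil surface, was the least abundant of the 4 eosinophil genes among the 10. It had 0, 127 and 0 counts at 2 months and 1317, 1005 and 1001 at 18 months. A count of 0 allows up to 0.0621 and 0.0623 CPM (counts scaled to the library total) in 2-month replicates 1 and 3, counting error only. The levels were 0.259 ± 0.448 and 6.11 ± 0.780 FPKM (SD, n = 3). The log2 fold change of 4.56 ± 1.86 (SE) had an edgeR adjusted p of 0.0864, the highest of these 4 genes.

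Mcpt8 (ENSMUSG00000022157, chr14:56082166-56085273, minus strand) encodes a serine protease of basophil granules. It had 0, 257 and 0 counts at 2 months and 4111, 4148 and 4180 at 18 months. The aged libraries were nearly equal, and counts in young cartilage came from replicate 2 alone. The levels were 1.46 ± 2.53 and 64.3 ± 2.67 FPKM (SD, n = 3). Its log2 fold change of 5.46 ± 2.00 (SE) had an edgeR adjusted p of 0.0644 and was not called. Against 2-month replicates 1 and 3, both at 0, the aged mean was at least 1092-fold higher for Mcpt8 and at least 289.8-fold higher for Siglecf, with the floor set at 3 counts per library.

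Cpa3 (ENSMUSG00000001865, chr3:20215620-20242181, minus strand), the carboxypeptidase of mast cell and basophil granules, rose. It had 0, 163 and 25 counts at 2 months and 1643, 2391 and 2073 at 18 months. Here 2-month replicate 3 was also above 0, and aged replicate 1 was the lowest of its group. The levels were 0.707 ± 0.987 and 20.9 ± 4.51 FPKM (SD, n = 3). Cpa3 had a log2 fold change of 4.86 ± 1.46 (SE), with an edgeR adjusted p of 0.0360. Leaving out 2-month replicate 3 or any one of the aged replicates 1, 2 and 3 raised the adjusted p to between 0.0755 and 0.107.

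Kit (ENSMUSG00000005672, chr5:75574916-75656722, plus strand) rose, by the smallest factor of the 3 called genes. It had 42, 766 and 80 counts at 2 months and 3400, 4058 and 4004 at 18 months. It was the one gene of the 7 that had more than 40 counts in every young library. The levels were 0.567 ± 0.776 and 6.65 ± 0.853 FPKM (SD, n = 3). The log2 fold change was 3.53 ± 1.09 (SE), with an edgeR adjusted p of 0.0385, and the call was lost in 5 of the 6 fits that left out 1 library, all but that without 2-month replicate 2, with adjusted p of at most 0.0983. Other cells that carry Kit were measured beside it. Of 10 stem and progenitor genes, led by Ly6a, 2 were called higher and 2 lower, and the list took 0.0101% to 0.0151% of counts at 2 months and 0.0192% to 0.0206% at 18 months. Slamf1, a receptor of stem cells and of other leukocytes, had 0, 50 and 0 counts in young and 1192, 1688 and 1494 in aged libraries, and Hoxa9 fell by 2.19 on the log2 scale. The 6 melanocyte genes, led by Pmel, took at most 0.000381% of counts, and Tyr and Tyrp1 had 4 counts at most in any library. The part of these cells in the difference of Kit was not tested.

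The connective tissue mast cell proteases had few counts at either age, and no difference between the ages was called. Mcpt4 (ENSMUSG00000061068, chr14:56059629-56062313, minus strand), the main chymase of mouse connective tissue mast cells, had 0, 0 and 53 counts at 2 months and 7, 0 and 4 at 18 months. Tpsb2 (ENSMUSG00000033825, chr17:25366305-25369098, plus strand), a tryptase, had 0, 0 and 7 counts at 2 months and 0 in each aged library. Neither passed the filter on low counts, and without the filter their edgeR adjusted p-values were 0.392 and 0.270. Cma1 (ENSMUSG00000022225, chr14:55941451-55944675, minus strand), another chymase, had 4, 4 and 33 counts in young and 13, 18 and 28 in aged libraries. The groups overlapped, and the library with the most counts of each of the 3 proteases was 2-month replicate 3. Cma1 stood at 0.212 ± 0.272 and 0.273 ± 0.113 FPKM (SD, n = 3). The log2 fold change was 0.23 ± 0.98 (SE), with an edgeR adjusted p of 0.858, and its sign depended on single libraries: it turned to −0.20 when 2-month replicate 1 was left out, to −0.21 for 2-month replicate 2 and to −0.12 for 18-month replicate 3.

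Of the further mast cell genes, some also had counts in 2-month replicate 3 and some had none. The receptor genes Mrgprb1, Mrgprb2 and Mrgprx2 had 27, 12 and 8 counts there. In the other 5 libraries Mrgprb1 and Mrgprx2 had 0, and Mrgprb2 had 10 in aged replicate 3 and 0 elsewhere. Tpsab1, Mcpt2, Mcpt9 and Tph1 were at 0 in 2-month replicate 3, and the histamine enzyme Hdc had 6 counts there. In that library Mcpt8 and Siglecf were at 0. Mcpt4 was 2.94 times as abundant as Cpa3 per unit length in that library, whereas in the aged libraries Mcpt4 was at most 0.00547 times as abundant as Cpa3.

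By FPKM, Prg2 led the 10 genes in the aged libraries. Mcpt8, Epx and Prg3 followed, and their ranges of 61.3 to 66.1, 55.0 to 70.3 and 41.4 to 63.5 FPKM overlapped. Cpa3 came next with 16.1 to 25.1 FPKM. Kit (5.67 to 7.23 FPKM) and Siglecf (5.62 to 7.01 FPKM) could not be put in order, and Cma1, Mcpt4 and Tpsb2 were below 0.4 FPKM in each aged library.

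**Figure D2:**
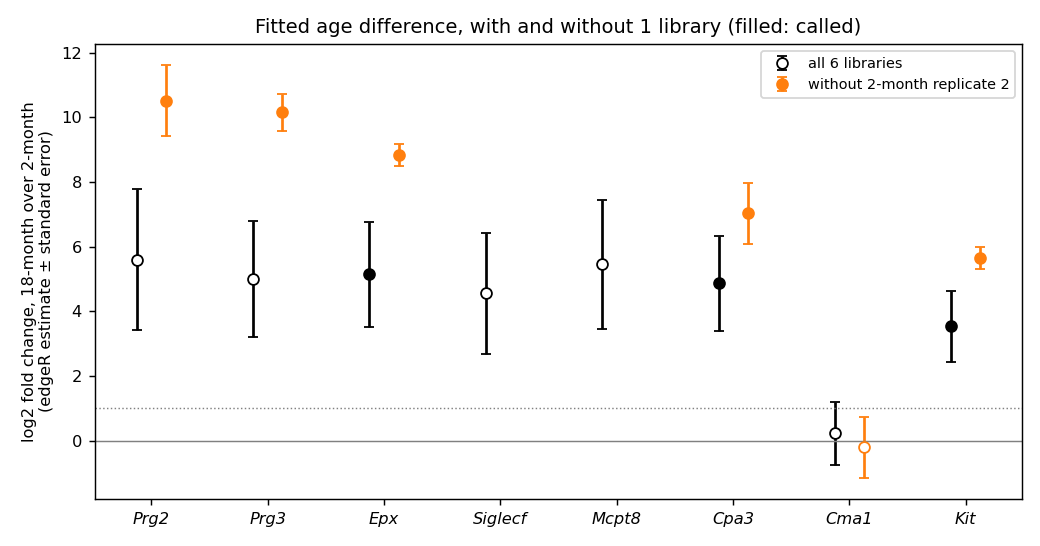
edgeR log2 fold changes (18-month over 2-month, with standard errors) of the 8 genes tested, with all 6 libraries in black and without 2-month replicate 2 in orange; filled points were called, and the dotted line is the fold limit of 1. Siglecf and Mcpt8 have no orange point because the remaining young libraries were at 0; Prg2 goes from 5.60 to 10.52 and Cma1 stays near 0.

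The plot of fold changes with and without that library shows smaller errors and larger estimates for Prg2, Prg3, Epx, Cpa3 and Kit once it was left out. Without 2-month replicate 2 the log2 fold changes of Prg2, Epx, Cpa3 and Kit were 10.52, 8.83, 7.03 and 5.66, with edgeR adjusted p-values of 0.000711, 5.48e-05, 0.00169 and 0.000128. The library left out held the highest young counts of these genes, so the larger estimates and smaller errors follow from that choice. Even against 2-month replicate 2 alone, the aged mean of normalised counts was higher for each of the 7 genes. It was 16.5 times as high for Prg2, 14.8 for Mcpt8, 12.4 for Epx, 11.5 for Cpa3, 10.9 for Prg3, 7.94 for Siglecf and 4.59 for Kit. Over whole marker lists the same ratio of summed counts was 7.98 for neutrophils, 6.97 for T and NK lymphocytes, 4.86 for erythroid cells, 3.39 for monocytes and macrophages and 0.781 for B lymphocytes, and it was 4.46 for the pan-leukocyte gene Ptprc. For further eosinophil, basophil and mast cell genes, described below, the summed ratio was 4.14, 4.52 and 6.80. A sum over a list and a single gene are unlike measures. The median of the single-gene ratios was 10.5, 6.48 and 5.97 in those lists. In the neutrophil, T and NK, erythroid, monocyte and macrophage, and B lymphocyte lists it was 9.86, 10.4, 4.93, 4.44 and 0.646. Single genes ranged from 0.566 (Mmp9) to 14.3 (Camp) in the neutrophil list and from 1.07 (Csf1r) to 7.71 (Ly6c2) in the monocyte and macrophage list. They ranged from 2.51 (Lck) to 38.8 (Cd8b1) in the T and NK list and from 1.79 (Tfrc) to 19.5 (Car1) in the erythroid list. In the B lymphocyte list they ranged from 0.471 (Pax5) to 2.11 (Cd22). Some genes of other blood cells thus had a larger ratio than Prg2. These ratios compare 3 libraries with 1 and have no test.

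**Figure D3:**
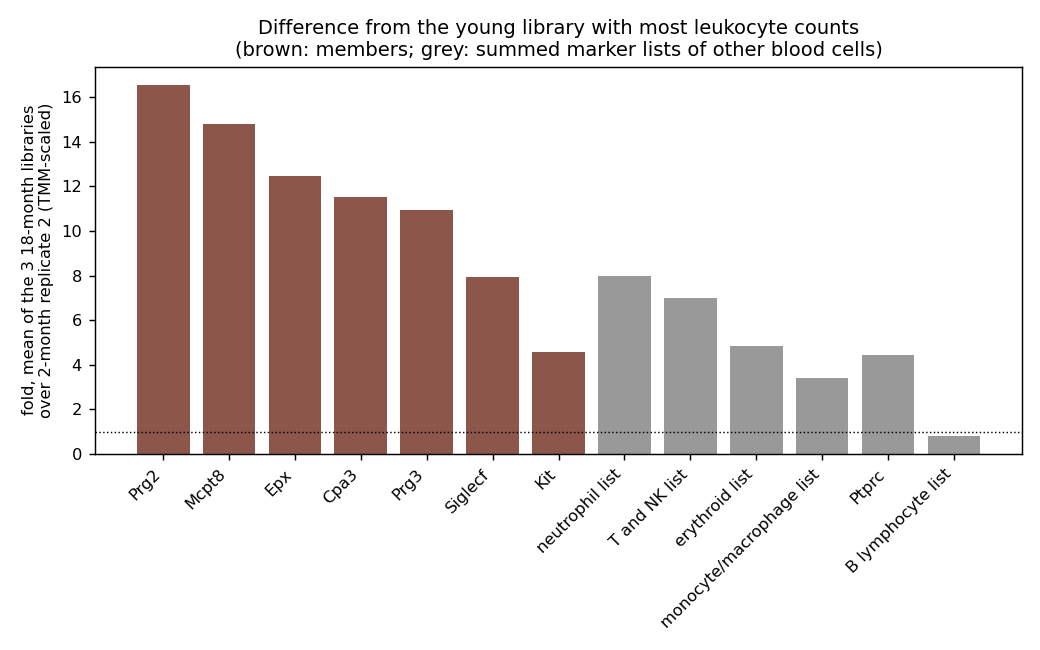
Ratio of the mean normalised count of the 3 aged libraries to that of 2-month replicate 2 (bars from 0, dotted line at 1), for 7 of the 10 genes in brown and for summed marker lists of other blood cells and Ptprc in grey. The brown bars run from 4.59 for Kit to 16.5 for Prg2, and the grey ones from 0.781 for the B lymphocyte list to 7.98 for the neutrophil list. Brown bars are single genes and the grey list bars are sums, so they are unlike measures. Single genes of the lists are not drawn, and they reached 38.8 (Cd8b1).

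The genes were also set against Ptprc, the surface phosphatase common to leukocytes, within each library. Per 1000 Ptprc counts there were 696 Prg2 counts in 2-month replicate 2 and 2388, 2649 and 2768 in the aged libraries. Mcpt8 had 44.0 per 1000 in 2-month replicate 2 and 117, 162 and 167 in the aged libraries. Epx had 137 there and 367, 370.1 and 414. These granule genes of eosinophils and basophils were thus higher relative to Ptprc in the aged libraries than in 2-month replicate 2. Other genes of these lineages did not all follow. The ratio of the aged mean to that library was 2.32 for Ccr3 and 1.13 for Itga2, below the 4.46 of Ptprc. The medians over the further eosinophil and basophil genes, 10.5 and 6.48, were above it. The neutrophil, T and NK and erythroid lists also had larger mean ratios to that library than Ptprc (7.98, 6.97 and 4.86 against 4.46). The monocyte and macrophage list and the B lymphocyte list had smaller ones (3.39 and 0.781). Epx had 316 per 1000 in 2-month replicate 1, from 12 counts. The other young libraries had 38 and 392 Ptprc counts, too few for most of the genes, and Cpa3, with 63.8 per 1000 in 2-month replicate 3, was above the 46.6 of aged replicate 1. Kit relative to Ptprc was not higher in every aged library than in 2-month replicate 2, with 131 there and 96.4, 159 and 160.0 in the aged libraries. It had 1105 and 204 in 2-month replicates 1 and 3, above every aged library. The same was done per 1000 counts of the summed neutrophil list. There Prg2 had 13.96 in 2-month replicate 2 and 33.3, 26.7 and 27.3 in the aged libraries, and Prg3 had 0.862 against 0.986 to 1.60. Epx had 2.74 against 5.11, 3.73 and 4.07, with 14.2 in 2-month replicate 1 from 12 counts, and Mcpt8 had 0.883 against 1.62, 1.63 and 1.64. Cpa3 had 0.560 against 0.649, 0.942 and 0.816, with 1.93 in 2-month replicate 3, and Siglecf had 0.436 against 0.520, 0.396 and 0.394. Kit was lower on this scale in every aged library, at 1.34, 1.60 and 1.58, than in 2-month replicates 1, 2 and 3, at 49.6, 2.63 and 6.17. In 13 of the 14 neutrophil genes, all but Mmp9, every aged library was above every young one, as was so for 33.9% of all tested genes. Ly6g was at 0 in 2-month replicate 1. By edgeR 0 of the 14 were called higher, and by DESeq2 11 were. The part of neutrophil and erythroid RNA in the differences of the 7 genes was not tested.

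**Figure D4:**
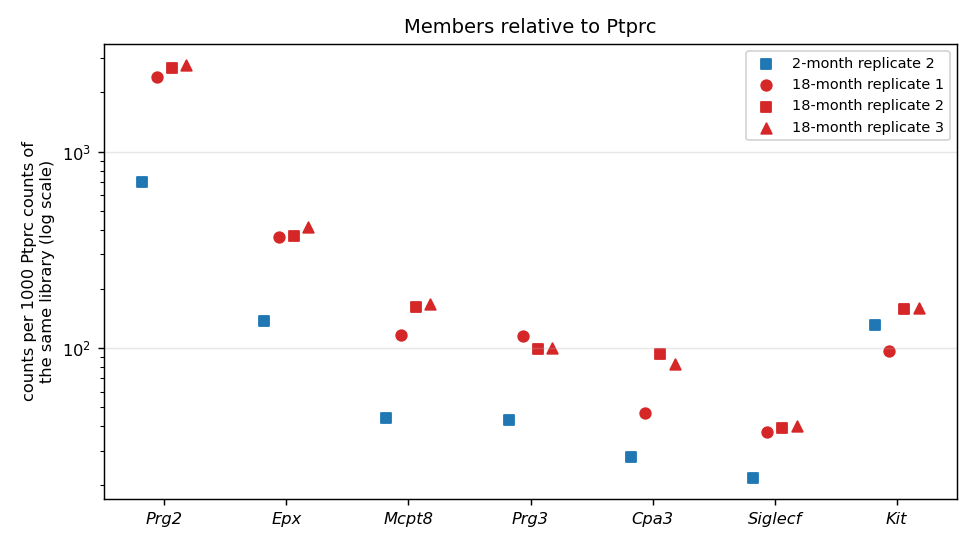
Counts of 7 genes per 1000 Ptprc counts of the same library (log scale) in 2-month replicate 2 (blue) and the 3 aged libraries (red). The blue point lies below the red ones for each gene except Kit, where 131 falls between 96.4 and 160.0.

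The normalised count of aged replicate 1 was also set against the mean of aged replicates 2 and 3, with no test. The ratio was 1.46 for Prg3, 1.19 for Siglecf, 1.18 for Epx, 1.11 for Prg2 and 0.895 for Mcpt8. For Kit, Cpa3 and Cma1 it was 0.764, 0.667 and 0.513, and for Mcpt4, from 7, 0 and 4 counts, it was 3.19. Aged replicate 1 also held the most chondrocyte counts of its group, 0.846% against 0.196% and 0.195%.

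Further genes of the same 3 lineages were taken from lists that hold none of the 10. Of 34 such genes, 27 were tested, and by edgeR 15 were called higher and 0 lower, with 0 lower at an unadjusted p below 0.05 and 0 by DESeq2 or limma. Their median log2 fold change was 3.61, and without 2-month replicate 2 the count of genes called higher was 25, in a fit that called 23.3% of all genes higher. Over all tested genes of the main fit 14.9% were called higher and 21.3% lower. These shares stand beside the 15 and the list counts below. Among 10 eosinophil genes, all tested, 5 were called higher, with Ear1 the largest rise and Cd24a, a surface protein of many immature blood cells, the most abundant. Ear1, a ribonuclease of the eosinophil granule, had 7, 722 and 31 counts in young and 14215, 10571 and 9905 in aged libraries, and rose by 5.36 ± 1.66 (SE) on the log2 scale with an edgeR adjusted p of 0.0390. Its paralogue Ear2 had 0, 834 and 34 against 11603, 9436 and 9114 counts with an adjusted p of 0.0735; the coding sequences are 95.7% identical, so reads could be divided between them. Ccr3, the eotaxin receptor, had 0, 311 and 67 against 774, 813 and 778 counts, an edgeR log2 fold change of 2.48 and an adjusted p of 0.200.

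Of 9 tested basophil genes 5 were called higher. Prss34, a basophil tryptase-like protease and the most abundant of them, had 0, 560 and 5 counts in young and 8475, 9005 and 9552 in aged libraries, and its edgeR adjusted p was 0.0705. The alpha chain of the IgE receptor, Fcer1a, had 0, 24 and 4 against 1076, 1399 and 1183 counts and rose by 6.82 ± 1.17 (SE) on the log2 scale, with an edgeR adjusted p of 0.00584. Cd200r3, an activating receptor of basophils and mast cells, rose by 2.59 with an adjusted p of 0.00162. Il4, the cytokine, had 31, 23 and 48 against 63, 39 and 46 counts, and the groups overlapped.

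Of 15 further mast cell genes in the table only 8 had enough counts to be tested, and 5 of these were called higher. Those that rose are not confined to mast cells: Srgn encodes the core proteoglycan of many leukocyte granules (2.97 on the log2 scale), Slc6a4 the serotonin transporter, also of platelets (5.48), Rab27b a granule docking protein (3.13), Slc18a2 a monoamine transporter (2.65) and Hpgds a prostaglandin D synthase (2.58). Hdc, which makes histamine, had 5, 1206 and 6 counts in young and 12500, 8574 and 8932 in aged libraries, with an edgeR adjusted p of 0.109. The tryptase Tpsab1, the neighbour of Tpsb2, was at 0 in 5 libraries and had 3 counts in aged replicate 3.

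Of the growth factors and chemoattractants 4 of 8 genes in the table could be tested and 2 rose. Kitl, the ligand of Kit, had 141, 1179 and 207 counts in young and 2791, 3337 and 3459 in aged libraries, and rose by 2.48 on the log2 scale with an edgeR adjusted p of 0.0430. The chemokine Ccl5, the most abundant of the list, had 11, 46 and 9 against 751, 869 and 878 counts and rose by 5.03 with an adjusted p of 0.00281. Il5, the eosinophil growth factor, had 6, 5 and 16 counts in young and 0 in each aged library, and the eotaxin genes Ccl11 and Ccl24 had at most 8 and 18 counts in any library.

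Of 12 tested genes for receptors and signal subunits 7 were called higher. Il5ra, Ccr3, Il3ra, Fcer1a and Ms4a2 were already counted in the eosinophil or basophil lists, and Il5ra, Il3ra and Fcer1a were among those called. The IL-5 receptor chain Il5ra had 0, 26 and 0 counts in young and 291, 285 and 357 in aged libraries, and rose by 4.98 ± 1.51 (SE) on the log2 scale with an edgeR adjusted p of 0.0368. Il1rl1, the IL-33 receptor, rose by 3.84 with an adjusted p of 0.0222. Fcer1g, the signal chain of the IgE receptor and the most abundant of the list, also serves other Fc receptors and rose by 3.88 with an adjusted p of 0.0390. Csf2rb, the shared chain of the IL-3, IL-5 and GM-CSF receptors, had an adjusted p of 0.128 and was not called. In the growth factor and receptor lists 0 genes were called lower by edgeR, 0 were lower at an unadjusted p below 0.05, and DESeq2 and limma gave 0.

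Transcription factors of the lineages moved in both directions. Of 13 tested, 3 were called higher and 1 lower, with a median log2 fold change of 0.15. Gata2 and Cebpe were already counted in the basophil and eosinophil lists. Gata2, needed by basophils and mast cells, had 52, 240 and 53 counts in young and 1295, 1958 and 1548 in aged libraries, and rose by 3.61 ± 0.66 (SE) on the log2 scale with an edgeR adjusted p of 0.00709. Gata1, needed by eosinophils and also by red cells, had 0, 584 and 13 against 4089, 4225 and 4277 counts with an adjusted p of 0.101. Mitf, a factor of mast cells, melanocytes and osteoclasts, fell by 1.83 on the log2 scale, from 1411, 1015 and 1300 counts to 480, 402 and 397, with an adjusted p of 0.00204. Xbp1, the most abundant of the list, had a log2 fold change of −0.11. Ptprc had one of 3.62 and was not called.

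Mcpt8, Mcpt4 and Cma1 lie in 1 cluster of serine protease genes on chromosome 14, and neighbours in it differed widely in counts. Ctsg, the cathepsin G gene of neutrophils and mast cells, was followed with the other genes of the cluster after its values had been seen. It had 0, 2088 and 10 counts in young and 28082, 24514 and 23711 in aged libraries, with an edgeR adjusted p of 0.122. Between Cma1 and Mcpt8, Mcpt2 had 0 counts in young and 4, 0 and 21 in aged libraries, and Mcpt9 had 3 in aged replicate 3 alone. Beyond Ctsg, the granzyme genes Gzme and Gzmd had 11 and 4 counts in 2-month replicate 3 and 0 in every other library. The coding sequence of Mcpt8 was 63.3% identical to that of Mcpt4, 67.1% to that of Cma1 and 64.5% to that of Ctsg.

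**Figure D5:**
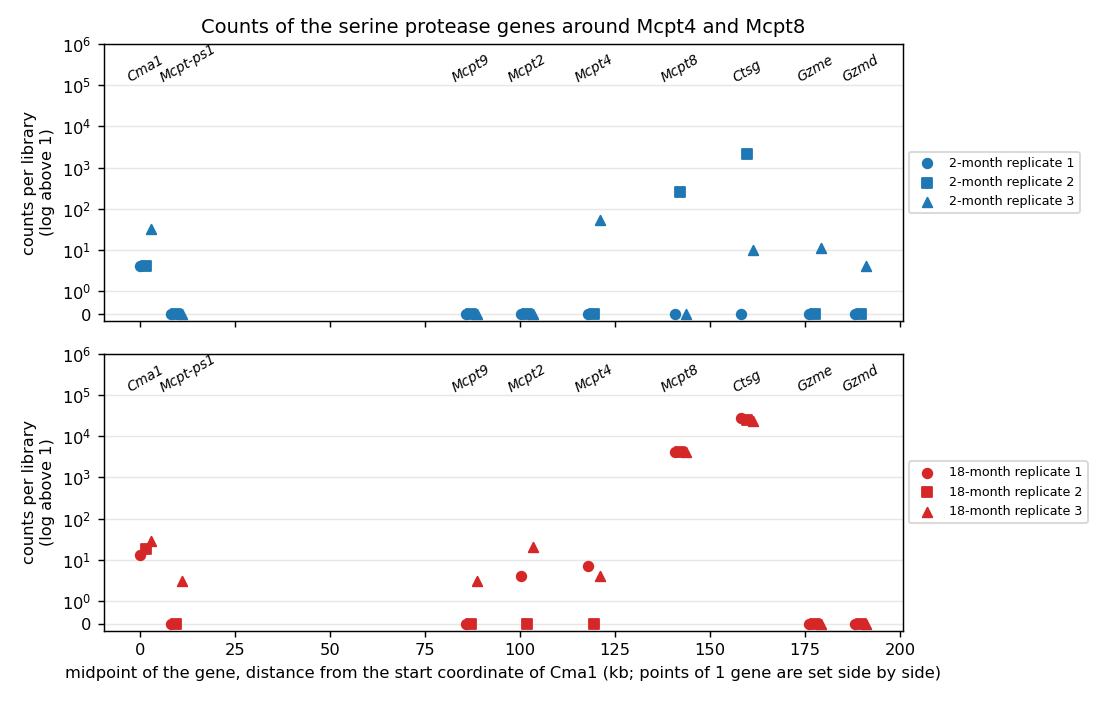
Counts of the serine protease genes of the cluster (log scale above 1) against the distance of each gene's midpoint from the start coordinate of Cma1 in kilobases, with young libraries above and aged ones below. Mcpt8 and Ctsg reach 4180 and 28082 counts in aged libraries, while Mcpt4 between Mcpt2 and Mcpt8 has 53 counts in 2-month replicate 3 and 7 or fewer elsewhere.

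GATA factors act in all 3 lineages, so the 250 bases before the RefSeq start of each gene were searched on both strands for AGATAA or AGATAG, and for the forms that begin with T in place of A, TGATAA or else TGATAG. RefSeq windows (GRCm38.p6) were found for 8 of the 10 genes, named here as Prg3, Epx, Siglecf, Mcpt8, Cpa3, Mcpt4, Cma1 and Kit. Of these, 4 held a match: Prg3 at 123 bases before the start, Cpa3 at 46, Mcpt4 at 103 and Cma1 at 79. Among all 32851 windows 26.5% held a match, which makes these matches a description only. The windows below are shown because Prg3, Cpa3 and Mcpt8 were high in every aged library and Mcpt4 in none; they are written in the direction of transcription with matches in capitals. They are chr2:84987965-84988214 (plus strand) for Prg3, chr3:20242182-20242431 (minus) for Cpa3, chr14:56062311-56062560 (minus) for Mcpt4 and chr14:56085198-56085447 (minus) for Mcpt8.
Prg3: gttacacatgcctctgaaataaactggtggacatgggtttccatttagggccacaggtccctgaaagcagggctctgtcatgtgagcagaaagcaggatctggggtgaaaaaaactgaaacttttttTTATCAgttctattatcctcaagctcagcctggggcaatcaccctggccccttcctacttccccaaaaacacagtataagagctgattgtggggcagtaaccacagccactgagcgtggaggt
Cpa3: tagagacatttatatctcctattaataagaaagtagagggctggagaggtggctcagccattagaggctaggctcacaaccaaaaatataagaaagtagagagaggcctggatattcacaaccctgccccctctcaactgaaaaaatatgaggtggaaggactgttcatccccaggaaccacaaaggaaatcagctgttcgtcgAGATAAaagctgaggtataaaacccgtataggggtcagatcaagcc
Mcpt4: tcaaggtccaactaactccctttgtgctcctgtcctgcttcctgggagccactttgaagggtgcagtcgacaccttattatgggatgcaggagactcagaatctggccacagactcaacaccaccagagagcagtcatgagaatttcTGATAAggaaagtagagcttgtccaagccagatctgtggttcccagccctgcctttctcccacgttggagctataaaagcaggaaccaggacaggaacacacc
Mcpt8: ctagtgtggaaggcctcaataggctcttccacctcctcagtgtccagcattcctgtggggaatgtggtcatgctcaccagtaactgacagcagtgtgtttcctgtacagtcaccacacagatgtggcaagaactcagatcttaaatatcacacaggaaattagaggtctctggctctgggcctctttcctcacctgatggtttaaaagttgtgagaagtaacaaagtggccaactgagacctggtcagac
A match was thus present both before 2 genes that were high in the aged libraries and before the chymase genes that were not. The windows of Mcpt8, Epx, Siglecf and Kit, which were also high in the aged libraries, held none.

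Genes with the most similar pattern over the 6 libraries were sought among genes with a mean of at least 1 CPM after normalisation. Likeness was the mean absolute difference of log2(CPM + 0.5) after centring each gene on its own mean, so a smaller value is closer. The added 0.5 bounds the fall near 0 counts, so likeness partly reflects the level of a gene. Cma1 was itself below 1 CPM in every library. A shared cell source or control was not tested. For Prg2 the 3 nearest were the neutrophil genes S100a8 (0.302), Chil3 (0.302) and Retnlg (0.317). For Epx they were Ear6 (0.131), Trem3 (0.138) and Ear1 (0.144), of which the Ear genes are eosinophil ribonucleases. For Prg3 they were Mrgpra2b (0.0797), Gatm (0.141) and Prss57 (0.144), and for Siglecf they were Gna15 (0.0897), Cd300ld (0.105) and Ptgir (0.124). For Mcpt8 they were Nkg7 (0.145), 4930438A08Rik (0.146) and Slpi (0.150), and for Cpa3 Mapk13 (0.122), Arrb2 (0.122) and Adam8 (0.137). For Kit they were Aurkb (0.0672) and Birc5 (0.0755), which act in cell division, and Slc11a1 (0.0877). For Cma1, highest in 2-month replicate 3 and lowest in 2-month replicates 1 and 2, they were A430103D13Rik (0.102), Olfr482 (0.108) and Gstp2 (0.143).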

How the data were processed

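Poly(A)-selected, strand-specific, paired-end libraries of mouse articular cartilage were analysed, 3 per age, each kept as its own sample. The authors deposited whole-number read counts per gene without normalization, and FPKM values scaled by the authors for length and library total. The submitters' processing notes name cutadapt 1.9, HISAT2 2.0.4, StringTie 1.3.4d, UMI-tools, DESeq2 and edgeR without roles. The build is not given in the sources used here, and the coordinates of all 10 genes were identical in GENCODE M21 (GRCm38).

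The counts were analysed with edgeR 4.0.16 under R 4.3.3 (TMM, filterByExpr, quasi-likelihood test, age alone), with Benjamini-Hochberg adjustment over 20397 genes. Standard errors came from the log2 fold change over the root of the F statistic. Normalised counts are TMM-scaled CPM. Alternatives were median-of-ratios or total-count scaling, no filter, DESeq2 1.42.0, limma 3.58.1 with trend on log2(FPKM + 0.1) or log2(FPKM + 1) for a mean FPKM of at least 0.1, a replicate block, and leaving out each library. Scripts were tested on simulated data. Python 3.11.15, biopython 1.88 and matplotlib 3.10.9 were used for sequences and figures.

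Besides the 10 genes, named genes include the most abundant gene of each list. The largest called changes are named for the eosinophil, basophil, mast cell, growth factor, receptor, transcription factor and stem and progenitor lists. Further named genes include those whose role is described, the ends of a range of ratios, genes near a member and the 3 nearest in pattern. The genes and lists were chosen with earlier results of these data known. The B lymphocyte (10 genes), T and NK lymphocyte (11), monocyte and macrophage (12) and fibroblast (9) lists, led by Cd79b, Nkg7, Ly6c2 and Fmod, had median log2 fold changes of 0.90, 4.89, 3.25 and −0.28.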

Additional observations from a re-analysis of the deposited data

How the results depend on the processing

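Of the 10 genes, 3 were called higher with median-of-ratios scaling, total counts alone or the replicate block, 5 by DESeq2, 7 by limma on log2(FPKM + 0.1) or log2(FPKM + 1), and 0 without the count filter, when 33971 genes were adjusted over. Over all genes these fits called 16.0%, 15.3% and 12.4%, then 19.6%, 20.3% or 14.1%, and 8.19% higher, against 14.9%. Leaving out 1 library gave 0 to 7, with 7 only without 2-month replicate 2. The other lineage genes called higher were 15, then 24 by limma on log2(FPKM + 0.1) and 11 to 25 with 1 library left out. None of the 10 was called lower by edgeR, DESeq2 or limma under any of these settings. The count of genes without overlap between the ages was 7 also by FPKM, and 7 or 8 with 1 library left out. The log2 fold change of Cma1 changed sign only when 1 library was left out, ranging from −0.21 to 2.04, and the cause was not tested. Those of Mcpt4 and Tpsb2 were −2.57 and −4.47 without the filter.

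Samples with the same number did not deviate together (correlations 0.034, 0.044 and −0.024). With 3 libraries per age, these values cannot show whether the number stands for a shared batch. With the replicate block 6032 genes were called against 7401, and 3 of the 10. A count of 0 allows up to 0.0508 to 0.0623 CPM. For Prg2, Prg3, Epx, Siglecf, Mcpt8, Cpa3 and Kit, the 2-month spread rests on replicate 2, and the cause was not tested.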
